A study of Homo sapiens with 16 samples.

Results

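The mitosis and DNA replication genes are 44 genes of the cell division cycle, 26 that act in mitosis and 18 that act in DNA replication or in the passage from G1 to S phase. They were chosen by gene symbol, and each was read from the single-gene probe set with the highest mean signal over all arrays. All 44 were measured and passed the filter on low signal, among 12495 genes tested of 18132 genes named on the array, and the mean signal of each of the 44 lay above the median probe set of every array. RNA was hybridised to 16 arrays, 4 per group, from HEK293 cells, a transformed line from human embryonic kidney. Cells of all 4 groups were transfected for 24 h with 500 ng per well of a plasmid encoding the mineralocorticoid receptor (MR) and then treated for 4 h with DOC plus PMA, with PMA alone, with DOC alone or with vehicle. DOC, a steroid that activates the receptor, was given at 100 nM. PMA, a tumour-promoting phorbol ester and activator of protein kinase C, was given at 10 nM. Cells without the receptor plasmid were not analysed here, so every difference is one between cells that carried it.

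A dividing cell copies its DNA in S phase and separates the copies in mitosis. Replication starts at origins licensed in G1, when CDC6 and CDT1 load the MCM2 to MCM7 helicase ring onto DNA, and cyclin D, cyclin E and the E2F factors govern the entry into S phase. Mitosis is driven by CDK1 with cyclins A and B and by the Polo and Aurora kinases, is carried out by spindle kinesins, and is held back by the spindle checkpoint until all chromosomes are attached. Transcripts of the replication set usually peak around the G1 to S boundary and those of the mitotic set in G2 and M. Promoters of the mitotic set often carry a cell cycle homology region, called CHR here, and those of the replication set E2F sites. HEK293 cells hold adenoviral E1A and E1B, proteins that bind RB and p53, and so divide without the usual control of those pathways.

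Promoters are described first because the mitotic and the replication set are textbook examples of different promoter elements. RefSeq promoters of 300 bases on GRCh38.p14, 250 before and 50 after the gene's start, were matched for 36 of the 44 genes, 22 mitotic and 14 replication. TTK, AURKA, TPX2, BIRC5, MCM4, MCM5, CCNE2 and CCND1 were not matched. The letters TTTGAA or TTTAAA, a CHR core, occurred in 19 of the 22 mitotic promoters (86.4%) and in 3 of the 14 replication promoters (21.4%), against 15.4% of the 10257 promoters of the genes tested and 24.3% of all 27305 promoters. The E2F-like letters TTTGGCGC, TTTCCCGC, TTTGGCGG or TTTCCCGG occurred in 3 of 22 mitotic promoters (13.6%) and in 10 of 14 replication promoters (71.4%), against 7.09% of the promoters of the genes tested and 4.35% of all promoters. CCAAT occurred in 19 of 22 (86.4%) and 10 of 14 (71.4%), against 36.6% of the promoters of the genes tested and 35.7% of all. The letters TGACTCA of an AP-1 site were in 0 of the 36 windows, against 3.04% of the promoters of the genes tested and 4.92% of all. Each motif was searched on both strands and on its own, so that letters shared by overlapping motifs would count for each, and a match is a run of letters, not a bound site.

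Of the promoters matched, 4 are printed 5′ to 3′ over the 250 bases before the start, with CHR, CCAAT and E2F-like letters on either strand in capitals. KIF20A (chr5:138178862-138179111, plus strand) is the mitotic gene with the largest decrease and holds CHR and CCAAT letters. RRM2 (chr2:10122489-10122738, plus strand) is a replication gene that rose and also holds CHR and CCAAT letters. CDC6 (chr17:40287629-40287878, plus strand) rose and MCM6 (chr2:135876444-135876693, minus strand) fell, and both hold E2F-like and CCAAT letters, CDC6 also a second E2F-like match after the start that is not printed.
KIF20A: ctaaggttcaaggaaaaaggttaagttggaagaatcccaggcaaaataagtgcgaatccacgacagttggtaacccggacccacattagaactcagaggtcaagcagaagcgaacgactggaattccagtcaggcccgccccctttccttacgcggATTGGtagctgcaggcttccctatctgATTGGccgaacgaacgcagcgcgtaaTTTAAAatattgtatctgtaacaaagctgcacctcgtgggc
RRM2: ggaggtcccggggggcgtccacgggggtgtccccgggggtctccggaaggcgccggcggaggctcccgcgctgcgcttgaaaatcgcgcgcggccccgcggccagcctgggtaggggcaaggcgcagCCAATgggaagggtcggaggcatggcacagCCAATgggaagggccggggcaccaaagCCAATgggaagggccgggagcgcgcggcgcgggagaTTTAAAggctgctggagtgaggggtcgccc
CDC6: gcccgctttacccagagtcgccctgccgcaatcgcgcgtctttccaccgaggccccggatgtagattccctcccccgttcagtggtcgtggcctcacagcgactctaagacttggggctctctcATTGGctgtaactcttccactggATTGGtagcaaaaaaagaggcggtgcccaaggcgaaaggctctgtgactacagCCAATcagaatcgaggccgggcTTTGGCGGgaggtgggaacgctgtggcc
MCM6: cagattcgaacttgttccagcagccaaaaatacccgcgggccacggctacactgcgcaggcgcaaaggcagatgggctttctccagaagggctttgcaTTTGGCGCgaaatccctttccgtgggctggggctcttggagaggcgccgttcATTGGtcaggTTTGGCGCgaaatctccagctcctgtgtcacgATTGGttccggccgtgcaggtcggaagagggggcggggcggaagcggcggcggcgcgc

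Before the results, some properties of the arrays need stating. The deposited values are log2 signals normalized by RMA, which gives every array the same overall distribution, so a change common to most genes cannot be seen in them, and a transcript's signal in a dish of cells cannot tell fewer cells in a cycle phase from less RNA per cell. Arrays of a group correlated at 0.9909 to 0.997 over the genes tested. PMA array 2, DOC array 1 and DOC plus PMA array 2 deviated from their group means together (pairwise correlations 0.425 to 0.554), and the counts below are given with and without these 3 arrays. The treatments left their known marks: FOS, an AP-1 subunit induced by phorbol esters, averaged 10.12 in PMA cells and 4.47 in vehicle cells, and PDK4, a steroid-responsive kinase gene, averaged 6.92 in DOC cells and 5.00 in vehicle cells. The receptor gene NR3C2 averaged 7.02 in DOC plus PMA cells, 7.21 in PMA cells, 7.38 in DOC cells and 7.43 in vehicle cells, and fell with PMA in the presence of DOC (log2 difference -0.36, limma adjusted p = 0.00993). Of 8 genes listed as HEK293 markers, 7 lay above the median of every array, all but PAX2, while 0 of 7 leukocyte, 0 of 6 endothelial and 0 of 7 fibroblast markers did. The mean signal over the HEK293 list ran from 9.38 to 9.52 on PMA arrays and from 8.94 to 9.13 on vehicle arrays. It ran from 3.26 to 3.30 on PMA arrays and 3.08 to 3.23 on vehicle arrays for the leukocyte list, from 4.05 to 4.16 on PMA arrays and 3.85 to 4.02 on vehicle arrays for the endothelial list, and from 3.41 to 3.54 on PMA arrays and 3.34 to 3.44 on vehicle arrays for the fibroblast list. All but the fibroblast list thus separated the groups by their means, and their part in the results below was not tested. The HEK293 genes did not move together. At a limma adjusted p under 0.05, 3 of the 8 rose with PMA (NEFM by 2.51, KRT8 by 0.79 and KRT18 by 0.77). NEFL fell by 0.45, 4 did not pass, and the median log2 difference of the list was 0.01.

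The first question was what PMA did to the 2 sets without steroid. In PMA cells 13 of the 26 mitotic genes fell, 1 rose and 12 did not pass, against 29.3% of all genes tested that were called lower and 17.7% that were called higher. The decreases were modest, at most 41% (KIF20A), and the median log2 difference of the mitotic genes was -0.20, against -0.04 over all genes tested. The 18 replication genes were split, with 7 higher, 7 lower and 4 not called, and a median of -0.05, which turned to 0.04 when arrays were scaled to a common median. By share, 50% of the mitotic genes were called lower, and 38.9% of the replication genes were called in each direction. Calls are limma tests at an adjusted p under 0.05 over the 12495 genes, and differences are given as log2 with their standard error (SE). The p-values measure the spread between the labelled biological replicates, and nothing in the labels says how these were separated.

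PMA changed 47% of all genes tested, so a call alone does not set a cell cycle gene apart. The 4 arrays of each group did not overlap for 12 mitotic genes that were lower in PMA cells and 1 that was higher, against 26.1% and 16.2% of all genes. The corresponding numbers for replication genes were 7 lower and 6 higher. Without the 3 arrays that deviated together, 15 mitotic genes were lower and 1 higher, and 9 replication genes were lower and 6 higher. The share of all genes called without these arrays is not given here, so an excess over it cannot be read from these counts. After scaling every array to a common median in place of the deposited scale, the median over all genes moved up by 0.09 in this comparison, 7 mitotic genes were called lower and 3 higher, and 4 replication genes lower and 7 higher. Of all genes tested, 22% were then called lower and 27.4% higher. The mitotic genes called lower thus came nearer to the share over all genes than on the deposited scale. The share of calls that were higher was then 55.4% over all genes, against 37.6% on the deposited scale. The median of the mitotic genes was -0.12 under that scaling, against 0.05 over all genes.

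**Figure D1:**
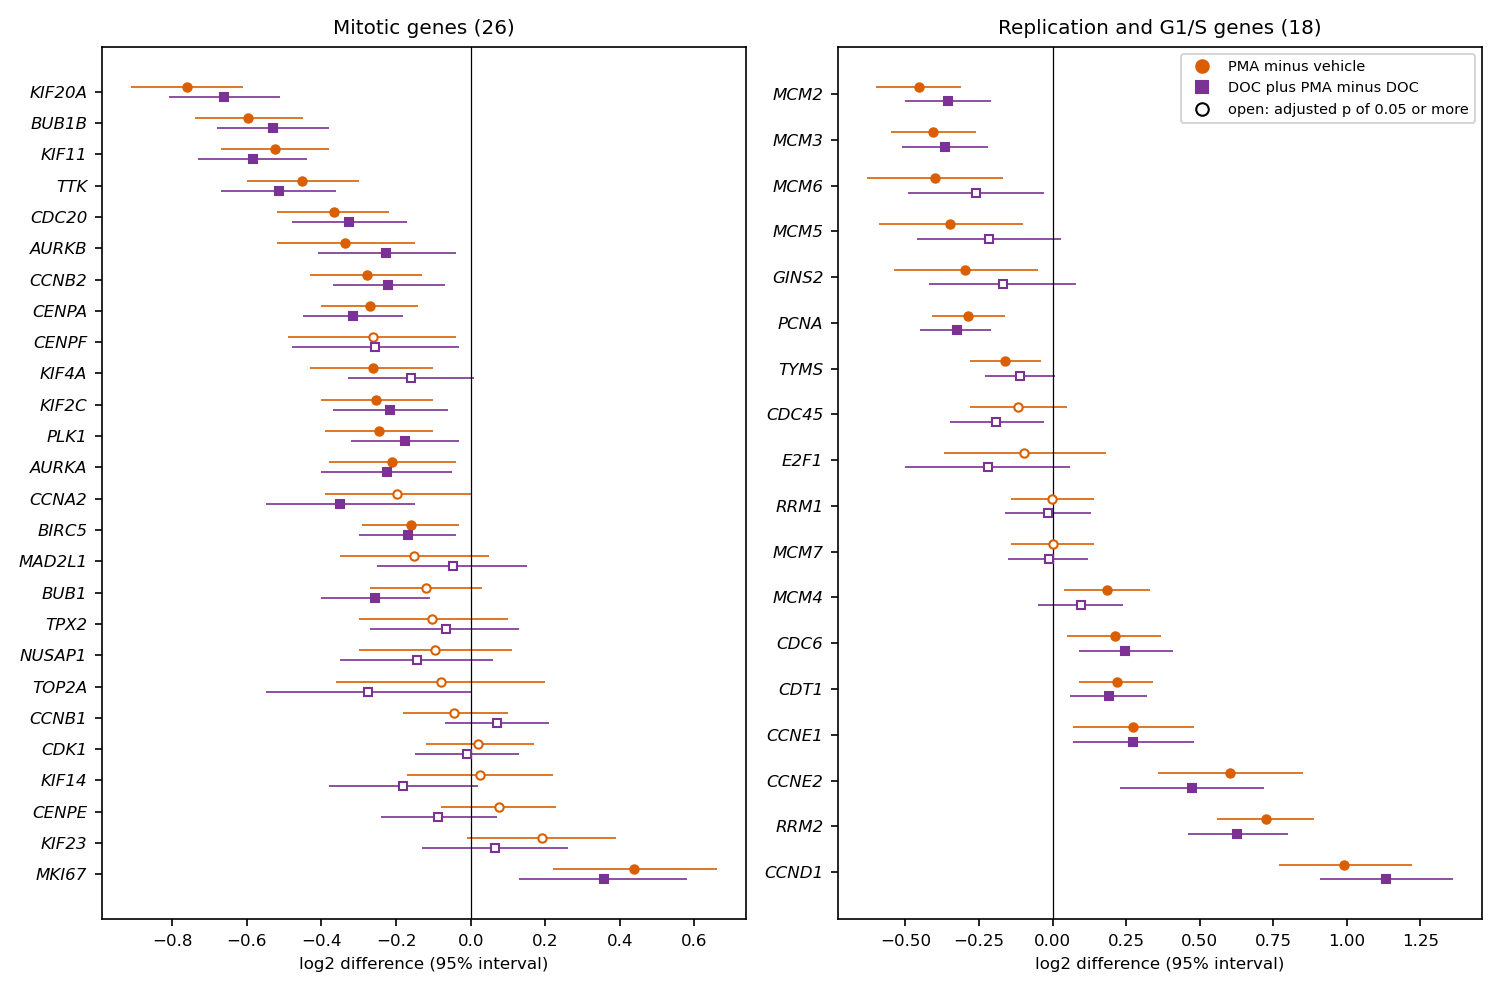
Log2 difference (horizontal axis) with its 95% confidence interval for each of the 26 mitotic genes (left) and 18 replication and G1/S genes (right), for PMA minus vehicle (circles) and DOC plus PMA minus DOC (squares). Filled symbols have a limma adjusted p under 0.05. In PMA minus vehicle, mitotic genes lie mostly to the left of 0, down to -0.76 for KIF20A. Replication genes spread to both sides there, from -0.45 for MCM2 to 0.99 for CCND1. In DOC plus PMA minus DOC, CCND1 reaches 1.13.

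Among the 6 mitotic kinesins, motors that move on or take apart spindle microtubules, 4 fell and 2 did not pass. KIF20A, the kinesin that carries cytokinesis proteins to the spindle midzone, had signals of 7.82, 7.96, 8.03 and 8.05 in PMA cells, against 8.58, 8.80, 8.65 and 8.87 in vehicle cells. Every PMA array lay below every vehicle array, and the gap between the groups was wider than the range within either. The difference was -0.76 ± 0.07 (SE), a decrease of 41% (limma adjusted p = 1.29e-07). KIF11, the plus-end motor that pushes the spindle poles apart, had 9.17, 9.41, 9.34 and 9.36 in PMA cells, against 9.74, 9.89, 9.84 and 9.89 in vehicle cells. Its groups were again apart (-0.52 ± 0.07, limma adjusted p = 5.69e-06), and its other probe set gave -0.55. KIF4A, a chromokinesin, and KIF2C, which takes apart microtubules at centromeres, fell by 0.26 and 0.25, and both lost their call under the common median (limma adjusted p = 0.0759 and 0.0699). KIF23, a partner in the central spindle, stood at 0.19 (95% interval -0.01 to 0.39) and was called higher without PMA array 4 (limma adjusted p = 0.04). KIF14 stood at 0.03 (interval -0.17 to 0.22).

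Of the 5 spindle checkpoint genes, counting the checkpoint's target CDC20, 3 fell. BUB1B encodes BUBR1, the checkpoint protein that blocks the anaphase-promoting complex, and had 7.98, 8.16, 8.12 and 8.06 in PMA cells, against 8.63, 8.68, 8.62 and 8.79 in vehicle cells. The highest PMA array was well below the lowest vehicle array (-0.60 ± 0.07, limma adjusted p = 1.5e-06, 33.9% lower). TTK, the MPS1 kinase that starts the checkpoint signal, had 9.04, 9.10, 9.11 and 9.00 in PMA cells, against 9.45, 9.57, 9.42 and 9.61 in vehicle cells. Again the groups did not meet (-0.45 ± 0.07, limma adjusted p = 4.89e-05). CDC20, the activator of the anaphase-promoting complex, had 9.66, 9.76, 9.79 and 9.85 in PMA cells, against 10.01, 10.32, 10.13 and 10.08 in vehicle cells. All PMA arrays were lower (-0.37 ± 0.07, limma adjusted p = 0.000393). BUB1, a checkpoint kinase at the kinetochore, stood at -0.12 (interval -0.27 to 0.03) and MAD2L1, which encodes MAD2, at -0.15 (interval -0.35 to 0.05), and neither passed.

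Among the Polo and Aurora kinases and their partners 4 of 5 fell, by 0.16 to 0.34. AURKB, the kinase of the chromosomal passenger complex, fell by 0.34 ± 0.09 (limma adjusted p = 0.00438), and PLK1, which acts from mitotic entry to cytokinesis, by 0.25 ± 0.07 (limma adjusted p = 0.00731). Under the common median their adjusted p-values in limma were 0.0502 and 0.053. AURKA, the spindle pole kinase, and BIRC5, the passenger protein survivin, fell by 0.21 (limma adjusted p = 0.0446) and 0.16 (limma adjusted p = 0.0375). The call of AURKA was lost without any 1 of 10 arrays (limma adjusted p up to 0.159) and that of BIRC5 without any 1 of 6 arrays (up to 0.116). A dimmer probe set of BIRC5 was called lower (-0.41, limma adjusted p = 0.000269), but the mean of its kept probe sets was not (-0.21, limma adjusted p = 0.101). TPX2, which activates Aurora A at the spindle, stood at -0.10 (interval -0.30 to 0.10).

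CDK1, the kinase that drives mitosis, and its 3 cyclins gave 1 call. CCNB2, a cyclin B, fell by 0.28 ± 0.07 (limma adjusted p = 0.00406). CDK1 stood at 0.02 (interval -0.12 to 0.17), CCNB1 at -0.04 (interval -0.18 to 0.10) and CCNA2, which encodes cyclin A2, at -0.20 (limma adjusted p = 0.0971). Without PMA array 2 or vehicle array 1, CCNA2 was called lower (limma adjusted p = 0.033 and 0.0244). Among centromere genes CENPA, the centromeric histone H3 variant, fell by 0.27 ± 0.06 (limma adjusted p = 0.00161). CENPE, a kinetochore motor, stood at 0.08 and CENPF, a large kinetochore protein, at -0.26 (limma adjusted p = 0.0533). CENPF was called lower without any 1 of 5 arrays (limma adjusted p 0.0152 to 0.0494). TOP2A, the topoisomerase that untangles sister DNA, and NUSAP1, a spindle-associated protein, stood at -0.08 and -0.10, with neither called. The other probe sets of NUSAP1 gave -0.19 and -0.32 without a call, but the mean of its kept probe sets was called lower (-0.20, limma adjusted p = 0.0152).

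MKI67, the proliferation marker Ki-67 that coats mitotic chromosomes, was the only mitotic gene called higher. Its signals were 9.46, 9.55, 9.31 and 9.49 in PMA cells, against 8.85, 8.96, 9.13 and 9.11 in vehicle cells. The groups did not overlap on this probe set (0.44 ± 0.11, limma adjusted p = 0.00239). The other probe sets of the gene went against it: of the 5, 4 gave differences of -0.19 to -0.43, 2 of them called lower in a limma fit over all 28226 kept single-gene probe sets (adjusted p = 0.0473 and 0.0315), and 1 gave 0.51 without a call. Averaged over its 6 probe sets, MKI67 stood at -0.06 (limma adjusted p = 0.739). The direction of MKI67 under PMA thus depended on the probe set.

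**Figure D2:**
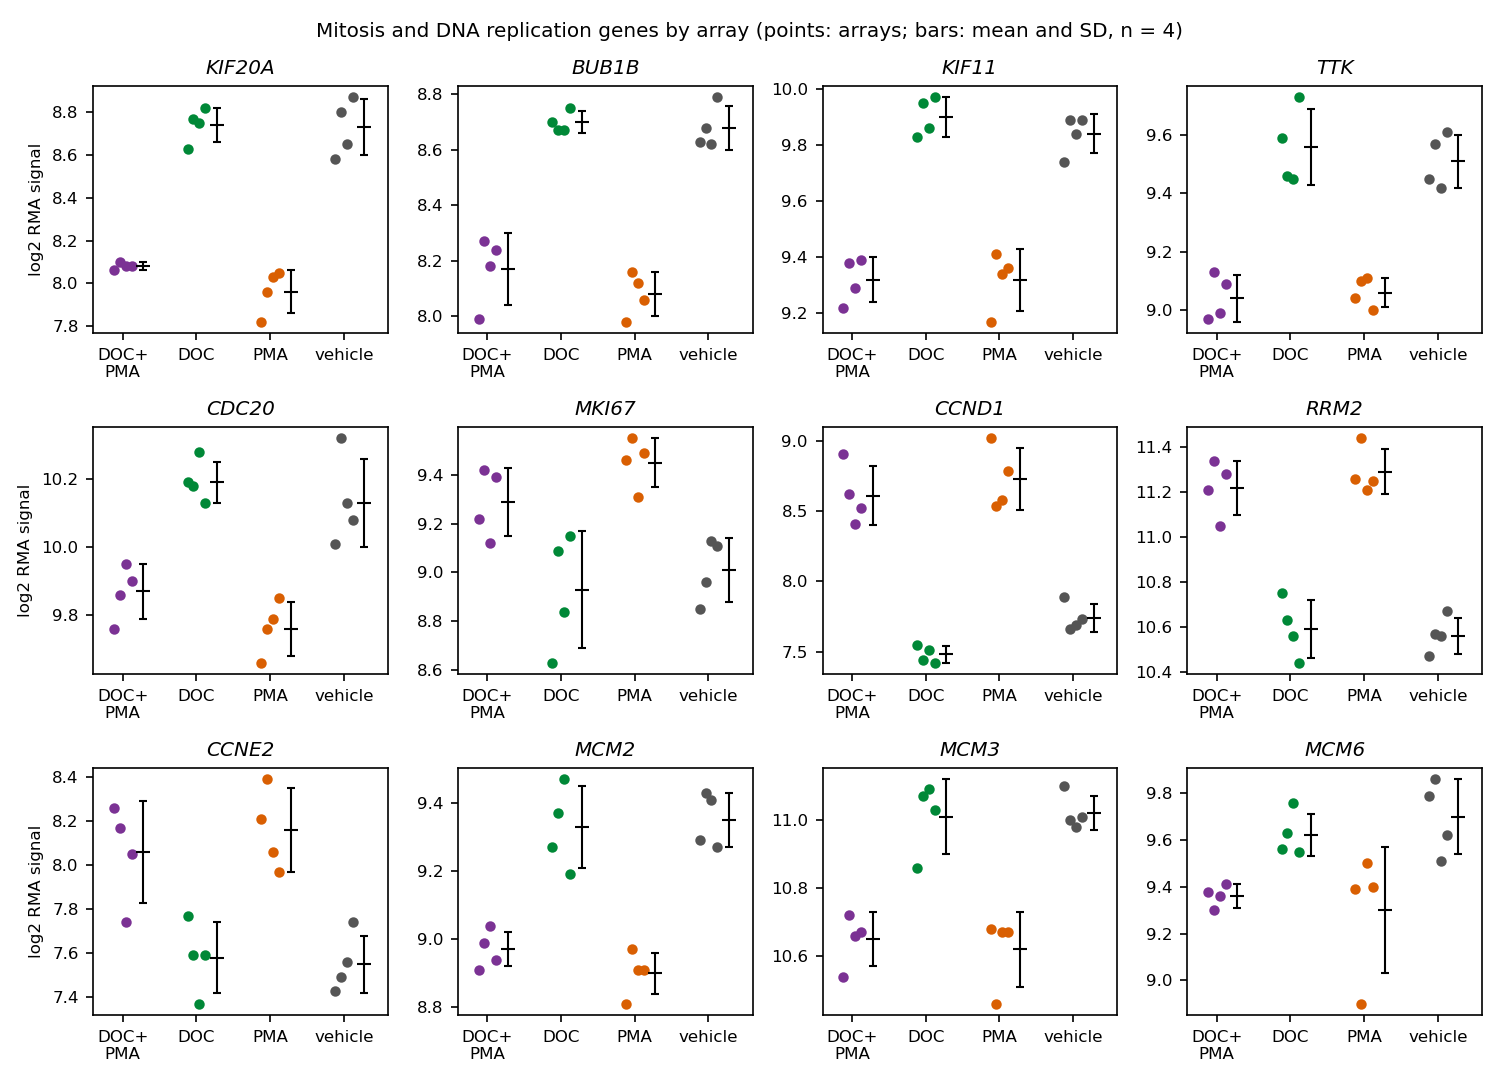
Log2 RMA signal (vertical axis, scale set per gene) of the 6 mitotic and 6 replication genes with the largest called differences under PMA, on each of the 16 arrays, with the mean and SD of each group (n = 4). In the panels of KIF20A, BUB1B, KIF11, TTK, CDC20, MCM2 and MCM3 both PMA groups lie below both groups without PMA, and in those of CCND1 and RRM2 both lie above.

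In the MCM helicase 4 of 6 subunits fell and 1 rose. MCM2 had 8.81, 8.97, 8.91 and 8.91 in PMA cells, against 9.29, 9.43, 9.41 and 9.27 in vehicle cells. The groups were apart (-0.45 ± 0.07, limma adjusted p = 2.95e-05), and its other 3 probe sets gave -0.40 to -0.48. MCM3 had 10.68, 10.46, 10.67 and 10.67 in PMA cells, against 11.10, 11.00, 10.98 and 11.01 in vehicle cells. Its lowest value was PMA array 2, but the other PMA arrays also lay below every vehicle array (-0.41 ± 0.07, limma adjusted p = 0.000121), and its other probe sets gave -0.27 to -0.50. MCM6 had 9.39, 8.90, 9.50 and 9.40 in PMA cells, against 9.79, 9.86, 9.51 and 9.62 in vehicle cells. Here the groups came within 0.01 of each other and PMA array 2 stood far below the rest (-0.40 ± 0.11, limma adjusted p = 0.00545). Its 2 dimmer probe sets gave -0.63 and -0.41, both called lower. MCM5 fell by 0.35 ± 0.12 (limma adjusted p = 0.0202) and lost its call without PMA array 2 (limma adjusted p = 0.0725). MCM4 rose by 0.18 (limma adjusted p = 0.0345), a call lost without any 1 of 5 arrays (limma adjusted p up to 0.0963), and its 5 probe sets spanned 0.07 to 0.18. MCM7 stood at 0.00 (interval -0.14 to 0.14). The subunits of 1 ring, which assemble in equal numbers, thus gave differences on both sides of 0.

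The factors that load and fire the helicase were split as well. CDC6, the loading ATPase, rose by 0.21 ± 0.08 (limma adjusted p = 0.0286), a call lost without any 1 of 4 arrays (limma adjusted p 0.0562 to 0.0936). CDT1, its partner in licensing, rose by 0.22 ± 0.06 on the probe set used (limma adjusted p = 0.00633), but its other 2 probe sets stood at -0.13 and -0.32 without a call, and their mean with the first at -0.08. GINS2, a subunit of the active helicase, fell by 0.30 ± 0.12 (limma adjusted p = 0.045), a call lost without any 1 of 8 arrays. CDC45, its partner, stood at -0.12 (limma adjusted p = 0.231), while its other 2 probe sets gave called decreases of 0.31 and 0.43. Without PMA array 2 CDC45 was called lower (limma adjusted p = 0.0309).

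Among the clamp and the enzymes of nucleotide supply, RRM2 stood apart. RRM2, the regulated small subunit of ribonucleotide reductase, had 11.26, 11.44, 11.21 and 11.25 in PMA cells, against 10.47, 10.57, 10.56 and 10.67 in vehicle cells. Every PMA array was above every vehicle array (0.73 ± 0.08, 1.65-fold, limma adjusted p = 8.92e-07), and the other probe set gave 0.53. RRM1, the large subunit of the same enzyme, stood at -0.00 (interval -0.14 to 0.14). PCNA, the sliding clamp of the replicative polymerases, fell by 0.29 ± 0.06 (limma adjusted p = 0.000527). Its second probe set was dim and stood at -0.01, and the mean of both was not called (-0.15, limma adjusted p = 0.0701). TYMS, thymidylate synthase, fell by 0.16 ± 0.06 (limma adjusted p = 0.0261), a call lost without any 1 of 5 arrays (limma adjusted p up to 0.0721).

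Of the 4 regulators of G1 and S entry, 3 rose. CCND1, which encodes cyclin D1, the cyclin that growth signals induce, had 9.02, 8.54, 8.58 and 8.79 in PMA cells, against 7.89, 7.66, 7.69 and 7.73 in vehicle cells. All PMA arrays were higher (0.99 ± 0.11, 1.99-fold, limma adjusted p = 6.34e-07), and all 4 probe sets were called higher, at 0.68 to 0.99. CCNE2, a cyclin E that activates CDK2 at S entry, had 8.21, 8.39, 8.06 and 7.97 in PMA cells, against 7.43, 7.49, 7.56 and 7.74 in vehicle cells. The groups did not overlap (0.60 ± 0.12, 1.52-fold, limma adjusted p = 0.000335). Its second, dimmer probe set gave 0.31 without a call. CCNE1, the other cyclin E, rose by 0.27 ± 0.10 (limma adjusted p = 0.0288), a call lost without vehicle array 4, PMA array 2 or PMA array 4 (limma adjusted p 0.057 to 0.0929). E2F1, the activating E2F factor that cyclin-dependent kinases release from RB, stood at -0.10 (interval -0.37 to 0.18).

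Probe sets other than the one chosen for each gene gave a further reading of the same arrays. The 44 genes had 114 single-gene probe sets, of which 110 passed the filter, and 31 genes had more than 1. Of the 61 kept mitotic probe sets 19 were called lower and 1 higher, and of the 49 kept replication probe sets 16 lower and 11 higher. Over all 28226 kept single-gene probe sets 24.7% were lower and 16.5% higher. By probe set the mitotic share called lower was thus no larger than the replication share, unlike by gene. It also lay nearer to the share over all than it did by gene. Probe sets of 1 gene differed in sign for 6 genes, BIRC5, CDT1, KIF14, KIF23, MKI67 and RRM1, and MKI67 alone had probe sets called in both directions. The probe sets used for MCM2, MCM3 and RRM2 carry the manufacturer's suffix x, and those of TTK, CDC20, CDK1, CENPA, TPX2, MCM4, RRM1 and CCNE1 the suffix s, marks of probes that may also bind other transcripts.

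**Figure D3:**
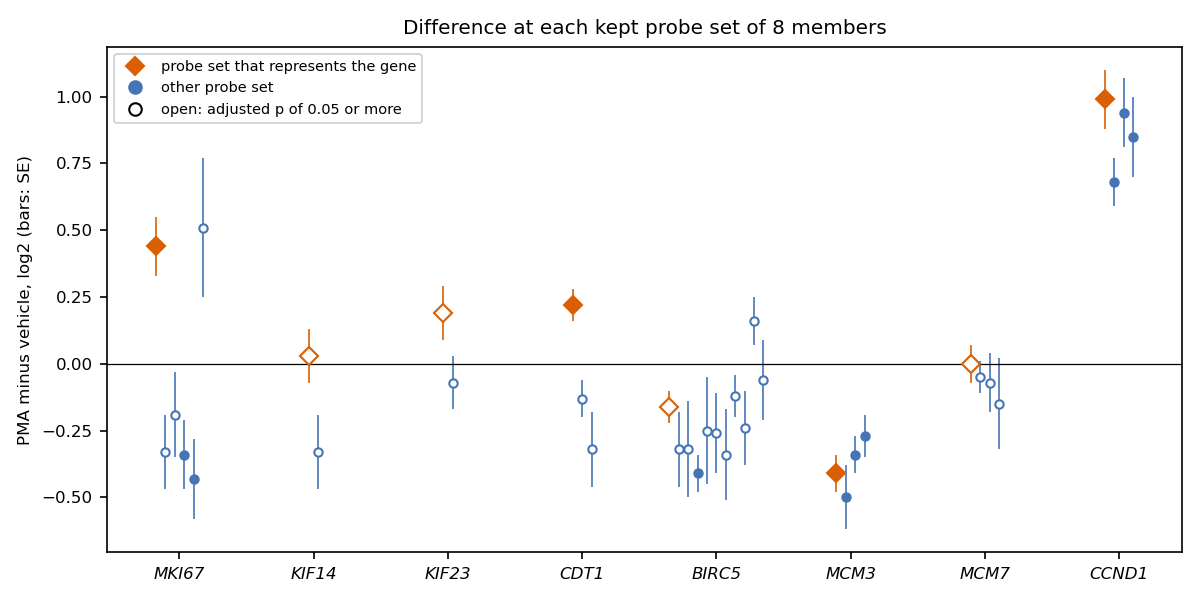
Log2 difference between PMA and vehicle cells (vertical axis, bars show the SE) at every kept probe set of 8 genes, in the limma fit over all kept single-gene probe sets. Diamonds mark the probe set that represents the gene. CCND1 and MCM3 keep 1 direction at all probe sets, while those of MKI67 run from -0.43 to 0.51. The probe set that represents BIRC5, called in the fit by gene, is open in this fit over probe sets, while a dimmer one at -0.41 is filled.

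The same question was asked in the presence of DOC, with arrays that the first comparison did not use. Calls in both comparisons rest on the same estimate of the spread over all 16 arrays. In DOC plus PMA cells 14 of 26 mitotic genes fell relative to DOC cells and 1 rose, against 26.9% lower and 15.7% higher of all genes tested (42.6% in either direction). Of the 18 replication genes 6 rose and 3 fell. The medians were -0.22 for the mitotic genes, -0.06 for the replication genes and -0.05 over all genes. Groups did not overlap for 13 mitotic genes that were lower and 0 that were higher, and for 5 replication genes that were lower and 4 that were higher, against 24.7% lower and 14.2% higher of all genes. Without the 3 arrays that deviated together, 14 mitotic genes were lower and 0 higher, and 7 replication genes were lower and 6 higher, again without the share over all genes. Under the common median the mitotic genes had 8 lower and 1 higher, the replication genes 3 lower and 7 higher with a median of 0.01. Of all genes tested, 20.5% were then called lower and 22.3% higher. Of all calls 52.1% were then higher, against 36.8% on the deposited scale. Without DOC plus PMA array 1 the mitotic genes called lower numbered 8, without DOC array 2 or DOC array 3 they numbered 9, and without DOC array 4 the replication genes called higher numbered 3. Without PMA array 2 or DOC array 1 the replication genes called lower numbered 5.

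Of the 12 genes with the largest called differences without DOC, all but MCM6 were also called with it on the probe set used. KIF20A had 8.06, 8.10, 8.08 and 8.08 in DOC plus PMA cells, against 8.63, 8.77, 8.75 and 8.82 in DOC cells (-0.66 ± 0.07, limma adjusted p = 8.25e-07). KIF11 had 9.22, 9.38, 9.29 and 9.39 in DOC plus PMA cells, against 9.83, 9.95, 9.86 and 9.97 in DOC cells (-0.58 ± 0.07, limma adjusted p = 1.77e-06). For both kinesins all arrays with PMA lay below all arrays without it. BUB1B had 7.99, 8.27, 8.18 and 8.24 in DOC plus PMA cells, against 8.70, 8.67, 8.67 and 8.75 in DOC cells (-0.53 ± 0.07, limma adjusted p = 6.55e-06). TTK had 8.97, 9.13, 8.99 and 9.09 in DOC plus PMA cells, against 9.59, 9.46, 9.45 and 9.73 in DOC cells (-0.51 ± 0.07, limma adjusted p = 1.41e-05). CDC20 had 9.76, 9.86, 9.95 and 9.90 in DOC plus PMA cells, against 10.19, 10.18, 10.28 and 10.13 in DOC cells (-0.32 ± 0.07, limma adjusted p = 0.00127). The 3 checkpoint genes were thus lower on every array with PMA. MKI67 had 9.22, 9.42, 9.12 and 9.39 in DOC plus PMA cells, against 8.63, 9.09, 8.84 and 9.15 in DOC cells, so that DOC array 4 lay within the range with PMA (0.36 ± 0.11, limma adjusted p = 0.0112). Its mean over probe sets was -0.21, and without the 3 arrays that deviated together its own call was lost (0.21, limma adjusted p = 0.105).

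CCND1 had 8.91, 8.62, 8.41 and 8.52 in DOC plus PMA cells, against 7.55, 7.44, 7.51 and 7.42 in DOC cells (1.13 ± 0.11, limma adjusted p = 1.36e-07). RRM2 had 11.21, 11.34, 11.05 and 11.28 in DOC plus PMA cells, against 10.75, 10.63, 10.56 and 10.44 in DOC cells (0.63 ± 0.08, limma adjusted p = 5.6e-06). Neither gene's groups overlapped. CCNE2 had 8.26, 8.17, 7.74 and 8.05 in DOC plus PMA cells, against 7.77, 7.59, 7.37 and 7.59 in DOC cells (0.47 ± 0.12, limma adjusted p = 0.00293). Here DOC plus PMA array 3 lay below DOC array 1. MCM2 had 8.91, 8.99, 9.04 and 8.94 in DOC plus PMA cells, against 9.27, 9.37, 9.47 and 9.19 in DOC cells (-0.35 ± 0.07, limma adjusted p = 0.000381). MCM3 had 10.54, 10.72, 10.66 and 10.67 in DOC plus PMA cells, against 10.86, 11.07, 11.09 and 11.03 in DOC cells (-0.36 ± 0.07, limma adjusted p = 0.000373). Both helicase subunits were lower on every array with PMA. MCM6 had 9.38, 9.30, 9.36 and 9.41 in DOC plus PMA cells, against 9.56, 9.63, 9.76 and 9.55 in DOC cells. These groups were apart, yet the difference of -0.26 ± 0.11 did not pass (limma adjusted p = 0.0607), and it passed without PMA array 2 (limma adjusted p = 0.00902), an array of another group that enters only the shared spread.

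Several weaker changes differed in their calls between the 2 comparisons. On the probe sets used, CCNA2 and BUB1 were called lower only with DOC present (-0.35 and -0.26, limma adjusted p = 0.00576 and 0.00628). On them KIF4A, MCM4, MCM5, MCM6, GINS2 and TYMS were called only in the comparison without DOC. The interaction test was not passed by any of these genes. Other probe sets changed this for MCM6, MCM4 and CCNA2. A dimmer one of MCM6 was called lower with DOC (-0.72, limma adjusted p = 9.93e-06), another was not (-0.27), and their mean with the first was called (-0.42, limma adjusted p = 0.000538). The probe set mean of MCM4 was called with DOC (0.19, limma adjusted p = 0.031) and not without it (0.12, limma adjusted p = 0.171). That of CCNA2 was called lower without DOC (-0.22, limma adjusted p = 0.0285). The dimmer probe set of CCNA2 was called in neither comparison (-0.25 without DOC and -0.13 with it). In the presence of DOC the calls of PLK1 and AURKB were each lost without any 1 of 11 arrays, those of AURKA and CCNE1 without any 1 of 6, that of BIRC5 without any 1 of 5, those of KIF2C and CDT1 without any 1 of 3, that of CDC6 without any 1 of 2 and that of CCNB2 without DOC plus PMA array 1. CENPA fell by 0.31 (limma adjusted p = 0.000476) and PCNA by 0.33 (limma adjusted p = 0.000162).

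Set side by side, the comparison with DOC and the one without it shared 12 mitotic genes called lower and 1 called higher, and 3 replication genes called lower and 6 called higher. No member was called in opposite directions, against 4 of all genes tested, and 39 of the 44 had the same sign (88.6%, against 85.6% of all genes tested). Of the mitotic genes called lower, the shared 12 were 92.3% of those without DOC and 85.7% of those with it, against 81% and 88.1% of all genes called lower. The differences of the 44 genes in the 2 comparisons, which use separate arrays, correlated at 0.959 across genes, as did those of all genes tested (0.959), and genes are not independent replicates. Nor were the 2 comparisons fully independent, as PMA and DOC plus PMA arrays of the same replicate number had correlated deviations (0.157 to 0.549). The largest gap between the 2 differences of a member was 0.21.

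Averaged over the 26 mitotic genes and set against the vehicle mean, the 4 PMA arrays stood at -0.25, -0.12, -0.20 and -0.20, and the 4 vehicle arrays at -0.11, 0.05, 0.02 and 0.04. The DOC plus PMA arrays stood at -0.24, -0.15, -0.21 and -0.15, and the DOC arrays at -0.03, 0.08, -0.00 and 0.06. Vehicle array 1 came close to PMA array 2, and the other arrays without PMA were clearly higher. The same average over the 18 replication genes was 0.05, 0.06, 0.02 and 0.03 on PMA arrays, against 0.01, 0.02, -0.02 and -0.01 on vehicle arrays, so that the mean of the replication genes was above 0 while their median difference of -0.05 was below it. The mitotic average minus the replication average was -0.30, -0.17, -0.21 and -0.23 on PMA arrays, against -0.12, 0.03, 0.04 and 0.05 on vehicle arrays, and -0.31, -0.22, -0.19 and -0.18 on DOC plus PMA arrays, against -0.06, 0.08, -0.01 and 0.13 on DOC arrays. By these means the 8 arrays with PMA lay below the 8 arrays without it. By medians in place of means they overlapped, with differences of -0.12, -0.24, -0.11 and -0.10 on PMA arrays, against -0.11, 0.04, 0.02 and 0.07 on vehicle arrays, and of -0.21, -0.19, -0.04 and -0.06 on DOC plus PMA arrays, against -0.08, 0.07, -0.02 and 0.12 on DOC arrays.

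Called genes were found with and without the promoter letters. Of the 19 mitotic genes with CHR letters 9 fell and 1 rose in PMA cells, and of the 3 without them, BUB1, CCNA2 and AURKB, 1 fell. Of the 10 replication genes with E2F-like letters 5 fell and 2 rose, and of the 4 without them 1 fell and 2 rose. The 3 replication genes with CHR letters were RRM1, RRM2 and CCNE1, of which 2 rose and 0 fell. CDC6 and MCM6, whose printed promoters share E2F-like and CCAAT letters, thus differed in direction, as did KIF20A and RRM2, which share CHR and CCAAT letters.

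The second question was whether DOC itself moved these genes. In DOC cells 0 of the 44 genes were called relative to vehicle cells by limma, with 1 at an unadjusted p under 0.05, against 0.12% of all genes tested (15 genes, all higher) and 386 genes at that unadjusted level. The differences ran from -0.26 to 0.15, and the 95% intervals of all 44 lay between -0.49 and 0.42. The 1 gene was CCND1, whose 4 DOC arrays (7.55, 7.44, 7.51 and 7.42) lay below its 4 vehicle arrays (7.89, 7.66, 7.69 and 7.73). Its difference was -0.26 (interval -0.49 to -0.04, unadjusted p = 0.0247, limma adjusted p = 0.999), and groups separated downward in this way for 0.568% of all genes, and upward for 1.76% of them and for 0 of the 44.

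Added to PMA, DOC likewise gave 0 calls among the 44 by limma and 0 at an unadjusted p under 0.05, against 0.384% of all genes tested, 45 of them higher (0.36%) and 3 lower (0.024%), and 544 genes at that unadjusted level. Differences between DOC plus PMA and PMA cells ran from -0.17 for MKI67 to 0.12 for KIF20A, with intervals between -0.44 and 0.32. For KIF20A the 4 DOC plus PMA arrays (8.06 to 8.10) lay just above the 4 PMA arrays (7.82 to 8.05), as they did for 2% of all genes. The interaction of DOC and PMA was called for 0 of the 44 and for 0.088% of all genes by limma, 9 of them higher (0.072%) and 2 lower (0.016%), with 0 of the 44 and 370 of all genes at an unadjusted p under 0.05. Interaction estimates ran from -0.21 for KIF14 to 0.14 for CCND1, and the outermost interval bounds over the 44 genes were -0.59 and 0.48. The median SE of these estimates was 0.11, so interactions as small as the weaker PMA differences could go uncalled.

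Compared with the shared vehicle arrays, DOC plus PMA lowered 10 mitotic genes and raised 1, and lowered 5 and raised 7 replication genes, against 26.3% lower and 17.5% higher of all genes (43.8% in either direction). The 1 raised mitotic gene was again MKI67, and its call was lost without any 1 of 8 arrays. Without vehicle array 1 or vehicle array 2 the replication genes called lower numbered 3. This comparison uses vehicle and DOC plus PMA arrays that also entered the comparisons above.

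**Figure D4:**
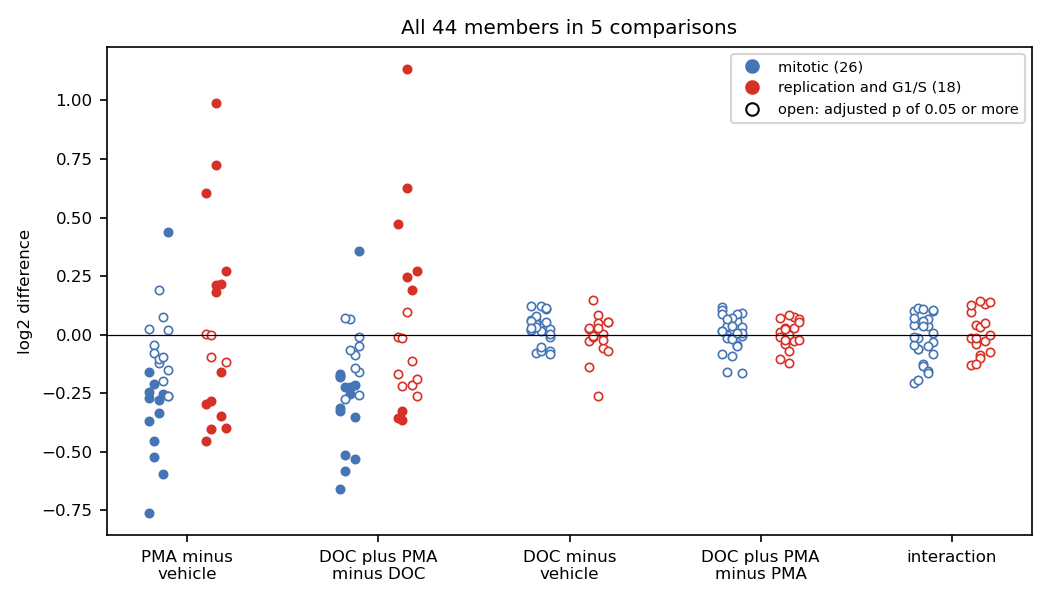
Log2 difference (vertical axis) of each of the 26 mitotic and 18 replication and G1/S genes in 5 comparisons. Filled points have a limma adjusted p under 0.05. Members spread from -0.76 to 0.99 in PMA minus vehicle and from -0.66 to 1.13 in DOC plus PMA minus DOC, while in DOC minus vehicle, DOC plus PMA minus PMA and the interaction all points are open and lie between -0.26 and 0.15.

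Further genes of the same machinery were counted by list, beside 29.3% lower and 17.7% higher of all genes tested (median -0.04). Of 31 further kinetochore and checkpoint genes 13 fell and 3 rose in PMA cells (41.9% and 9.68%, median -0.11). SPC24 and SPC25, which pair within the NDC80 complex that grips microtubules, went opposite ways: SPC24 averaged 7.31 in PMA cells and 8.25 in vehicle cells (-0.95 ± 0.08, limma adjusted p = 2.35e-08), and SPC25 9.00 in PMA cells and 8.62 in vehicle cells (0.38 ± 0.06, limma adjusted p = 8.5e-05). With DOC present they stood at -0.88 and 0.38, both called. Of 23 further kinesin and spindle genes 7 fell and 0 rose (30.4% and 0%, median -0.09). BORA, the activator of Aurora A towards PLK1, was lowest at -0.59. Of 19 condensin and cohesin genes 3 fell and 1 rose (15.8% and 5.26%, median -0.04). ESPL1, the separase that cuts cohesin at anaphase, was at -0.67 and NCAPG, a condensin subunit, at 0.23. Of 24 genes of the anaphase-promoting complex and mitotic entry 8 fell and 3 rose (33.3% and 12.5%, median -0.09). ANAPC13, a small subunit of that complex, was at -0.78, and FBXO5, which encodes its inhibitor EMI1, at 0.62.

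On the replication side, 20 further origin and helicase genes had 7 lower and 6 higher (35% and 30%, median -0.09). The shares over all genes tested were again 29.3% lower and 17.7% higher. ORC5, a subunit of the origin recognition complex, averaged 7.47 in PMA cells and 8.51 in vehicle cells (-1.04 ± 0.08, limma adjusted p = 7.36e-09), and TICRR, a factor of origin firing, 6.84 in PMA cells and 6.36 in vehicle cells (0.48 ± 0.12, limma adjusted p = 0.0025). Of 27 polymerase and clamp genes 16 fell and 0 rose (59.3% and 0%, median -0.21). PRIM1, the small primase subunit, was lowest at -0.75. Of 18 genes of the RB, E2F and DREAM group 4 fell and 5 rose (22.2% and 27.8%, median -0.02). The activating factors E2F2 and E2F3 stood at -0.43 and 0.53. Of 15 G1 cyclins, kinases and inhibitors 3 fell and 3 rose (20% each, median -0.05). The 2 largest of these were inhibitors of cyclin-dependent kinases: CDKN1A, which encodes p21, averaged 11.44 in PMA cells and 9.84 in vehicle cells (1.61 ± 0.15, limma adjusted p = 1.24e-07), and CDKN1B, which encodes p27, 8.22 in PMA cells and 9.21 in vehicle cells (-0.99 ± 0.07, limma adjusted p = 2.37e-09). In the presence of PMA and DOC, CDKN1A averaged 11.71, against 10.03 with DOC alone, and CDKN1B 8.25, against 9.24 with DOC alone, and all the genes named here were called in the same direction relative to DOC cells except NCAPG (0.15, limma adjusted p = 0.0901). These lists were compiled from general knowledge of the cell cycle, but with earlier results of these data known, so they are no independent check. The shares over all genes given above for PMA apply to them.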

How the data were processed

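Total RNA of 16 HEK293 cultures in 4 groups of 4 was labelled from 100 ng and hybridised to Affymetrix PrimeView arrays, per the labels. Per the submitters' processing notes, the authors used Affymetrix Expression Console and RMA to make the log2 values they deposited, with versions and a genome build not given in the sources used here. Of 49293 probe sets, 44988 named 1 gene in the platform annotation, 1832 several and 2473 none; 44961 were matched to RefSeq symbols. Kept probe sets (30613) reached the 40th percentile of the array on 4 arrays or more, and each gene was read from its kept single-gene probe set with the highest mean. Control probe sets were not used. Array medians were 4.91 to 4.96, and precision is limited by the number of arrays. Group means were fitted over all 16 arrays with limma 3.58.1 in R 4.3.3 (lmFit, eBayes), with 6 contrasts, two-sided tests and Benjamini-Hochberg adjustment over 12495 genes. The fit was tested on simulated data. The members and lists were chosen with earlier results of these data known, so no test over a list was made and none is independent of that choice. Every member is named; values on every array are given for the 6 of each set with the largest called differences under PMA, and from each further list the called gene most lowered and most raised. Alternatives were no filter and a filter at the 60th percentile, the mean of probe sets, cyclic loess, a common median, a trended robust variance prior, array weights, only the arrays compared, the replicate number as a block, and each array left out. Replicate numbers paired PMA with DOC plus PMA arrays (correlations of deviations 0.157 to 0.549, 4 of 4 above 0.1), from the data only. No other groups had 4 of 4, though DOC with DOC plus PMA and vehicle with DOC had 3 of 4 (up to 0.437 and 0.244). Chosen after the data were seen were the omission of 3 arrays that deviated together, a block over 8 arrays and the fit over all probe sets.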

Additional observations from a re-analysis of the deposited data

Results flagged for a closer look

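In groups of 4 arrays, 1 array was set far from the other 3 for 9 of the 176 combinations of member and group (its gap over the group's range above Dixon's 95% critical value), and chance gives about 1 in 20. PMA array 2 was high for NUSAP1 (9.37, the others 8.96 to 8.97) and low for MCM3 (10.46, the others 10.67 to 10.68) and MCM5 (5.88, the others 6.21 to 6.22). DOC array 1 was low for GINS2 (9.02, the others 9.51 to 9.58) and high for E2F1 (7.08, the others 6.50 to 6.52). DOC plus PMA array 2 was high for CDC6 (10.26, the others 10.07 to 10.10). These 6 values belong to the 3 arrays that deviated together. DOC plus PMA array 1 was low for KIF4A (8.47, the others 8.66 to 8.70) and CENPE (7.87, the others 8.07 to 8.09), and vehicle array 1 was low for CENPF (8.99, the others 9.30 to 9.32). Their causes were not tested.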

How the results depend on the processing

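In the comparison of PMA with vehicle, 7 of 14 called mitotic genes and 6 of 14 called replication genes were called under all 26 alternatives; with DOC present it was 8 of 15 and 5 of 9, and for DOC plus PMA against vehicle 6 of 11 and 7 of 12. No member was called in DOC against vehicle (26 alternatives), DOC plus PMA against PMA (27) or the interaction (25). Under the common median PMA lowered 7 mitotic and 4 replication genes and raised 3 mitotic genes. DOC plus PMA then lowered 8 mitotic genes against DOC, and 6 mitotic and 3 replication genes against vehicle. Of all genes, 22%, 20.5% and 20.5% were called lower under it in these comparisons, and 27.4% higher in PMA against vehicle. With the mean of probe sets 0 mitotic genes were higher in each of the 3 comparisons of PMA, and MKI67 turned to -0.06, -0.21 and -0.23 and CDT1 to -0.08, -0.05 and -0.11 (PMA against vehicle, DOC plus PMA against DOC, and against vehicle). Replication genes lower in DOC plus PMA than in DOC numbered 7 with array weights and 6 with the trended robust prior. Without the 3 arrays that deviated together they numbered 7, with 0 mitotic genes higher, and against vehicle 8 replication genes were lower and 0 mitotic genes higher; the last was also 0 with no filter. With 1 array left out, PMA against vehicle gave 1 to 2 mitotic genes higher, 11 to 15 lower, and 4 to 7 replication genes higher (4 without PMA array 2), 5 to 7 lower. DOC plus PMA against DOC gave 1 to 1 and 8 to 14 mitotic, and 3 to 6 and 3 to 5 replication genes. DOC plus PMA against vehicle gave 0 to 1 and 7 to 11, and 6 to 7 and 3 to 6. The counts with arrays left out are given without the matching shares over all genes. With the replicate block over all 16 arrays, PMA lowered 14 mitotic and 7 replication genes and raised 1 and 7; in DOC plus PMA against PMA, whose numbers pair the arrays, the block over 8 arrays called 0 members and 11 of all genes lower, against 3 without it. In the 3 comparisons of PMA the block over 16 arrays ended no member's call and added CENPF in each, CDC45 in DOC plus PMA against DOC, and KIF4A and PLK1 in DOC plus PMA against vehicle. Over all genes, the common median gave 3418 genes higher with PMA, against 2206, and array weights 83 higher for DOC plus PMA against PMA, against 45, and 23 for the interaction, against 9. The causes were not tested. With 4 arrays per group, intervals of single genes were as wide as the smaller differences named.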
